A study of Mus musculus with 5 samples.

Results

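The 37 genes described here take part in coagulation, in its control at the vessel wall, in fibrinolysis and in platelet function. They were chosen by name from a list, and all 37 were found by symbol among the 49315 genes of the count table. They were set in 5 roles: 4 genes of the endothelial surface (Vwf, Thbd, Procr, Tfpi), 6 of plasminogen activation (Plat, Plau, Plaur, Serpine2, Anxa2, S100a10), 4 protease-activated receptors (F2r, F2rl1, F2rl2, F2rl3), 12 plasma factors and inhibitors, and 11 platelet genes. RNA was measured by poly(A)-selected RNA-seq in lung endothelial cells of mice given angiotensin II, a vasoconstrictor hormone, by infusion for 28 days. There were 2 libraries of the genotype TET2KO, in which endothelial cells lack Tet2 by design, and 3 libraries of wild-type mice (WT). Tet2 encodes an enzyme that oxidises methylated cytosine in DNA. All mice of both groups had received the hormone. The Cre driver, the deleted exons, the age of the mice, the way the cells were isolated and whether a library came from 1 animal are not given in the sources used here. The p-values therefore measure the spread between these libraries, which may be in part technical.

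Resting endothelium keeps blood fluid. Thrombomodulin and the endothelial protein C receptor turn thrombin into an activator of protein C, tissue factor pathway inhibitor blocks the start of the cascade, and tissue plasminogen activator starts the breakdown of fibrin. Most soluble clotting factors come from the liver, whereas platelet glycoproteins and granule chemokines are made by megakaryocytes, which also occur in the mouse lung, and are carried as RNA in platelets.

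Total counts ran from 27346804 to 35440257 per library. Tet2 stood at 139 and 162 CPM (counts scaled to a common library total with TMM factors) in TET2KO and at 141, 174 and 131 CPM in WT, which does not check the genotype, because the deleted exons are unknown here. WT replicate 2 had the highest sum of macrophage and monocyte markers and the lowest sum of lymphocyte markers. The 9 lymphocyte markers, all lowest there, summed to 1360 and 886 CPM in TET2KO and to 1591, 530 and 1957 CPM in WT. For the sums of alveolar epithelial, mesenchymal, erythroid and neutrophil markers, WT replicate 2 was neither the highest nor the lowest library. The 14 macrophage and monocyte markers that were found, out of 15 listed, summed to 5202 and 9620 CPM in TET2KO. They summed to 10281, 39389 and 3582 CPM in WT replicates 1 to 3, and none of the 14 was at 0. In WT replicate 2, Lyz2 stood at 18223 CPM and Chil3 at 15529 CPM. Of the 14, 10 were highest in that library and 4 (C1qa, C1qb, Ccr2 and Ly6c2) were lowest there. The 18 endothelial markers summed to 8283 and 8102 CPM in TET2KO and to 4738, 3730 and 6564 CPM in WT, and 17 of them had both TET2KO values above every WT value. In bulk RNA, fewer cells of a type and less RNA per cell cannot be told apart. The log2 fold changes in the authors' deposited table did not follow the labels: they differed by a median of 0.201 from those of the labelled groups, and by 0.000489 from those of the TET2KO libraries together with WT replicate 3 over WT replicates 1 and 2. The groups below are those of the labels. Values without a library are given where leaving it out turned a direction or moved a fold change by a large factor.

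Of the 37 genes, 36 passed the filter on low counts, each with at least 1 library over the limit in both groups. None differed between TET2KO and WT in edgeR (quasi-likelihood, p adjusted by Benjamini-Hochberg over all 18727 genes tested) (0 of 36, where 0% of all genes were called), and limma-voom called 0 of them too. DESeq2 also called 0 of the 36, where it called 0.126% of all genes, or 0.34% on filtered counts. With 2 and 3 libraries, a gene that misses the threshold is not shown to be alike in the groups. At an unadjusted p under 0.05, 3 were higher in TET2KO, namely F13a1, Gas6 and Serpine2, and 0 were lower, where 5.32% of all genes were higher and 0.539% lower. Both TET2KO values exceeded every WT value for 8 of the 36 and were under every WT value for 2, and each of these held for 12.4% of all genes. The log2 fold change was above 0 for 25 of the 36, against 41.6% of all genes, and its median was 0.28 for these genes and -0.08 for all genes. Leaving out WT replicate 2 gave a median of 0.39, leaving out WT replicate 3 gave 0.28 and leaving out TET2KO replicate 1 gave 0.06. Relative to the summed endothelial markers it was -0.50, with 5 of 36 above 0, and the median of all genes was -0.84. Values with this scaling given below for single genes and roles stand beside that median of -0.84.

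**Figure D1:**
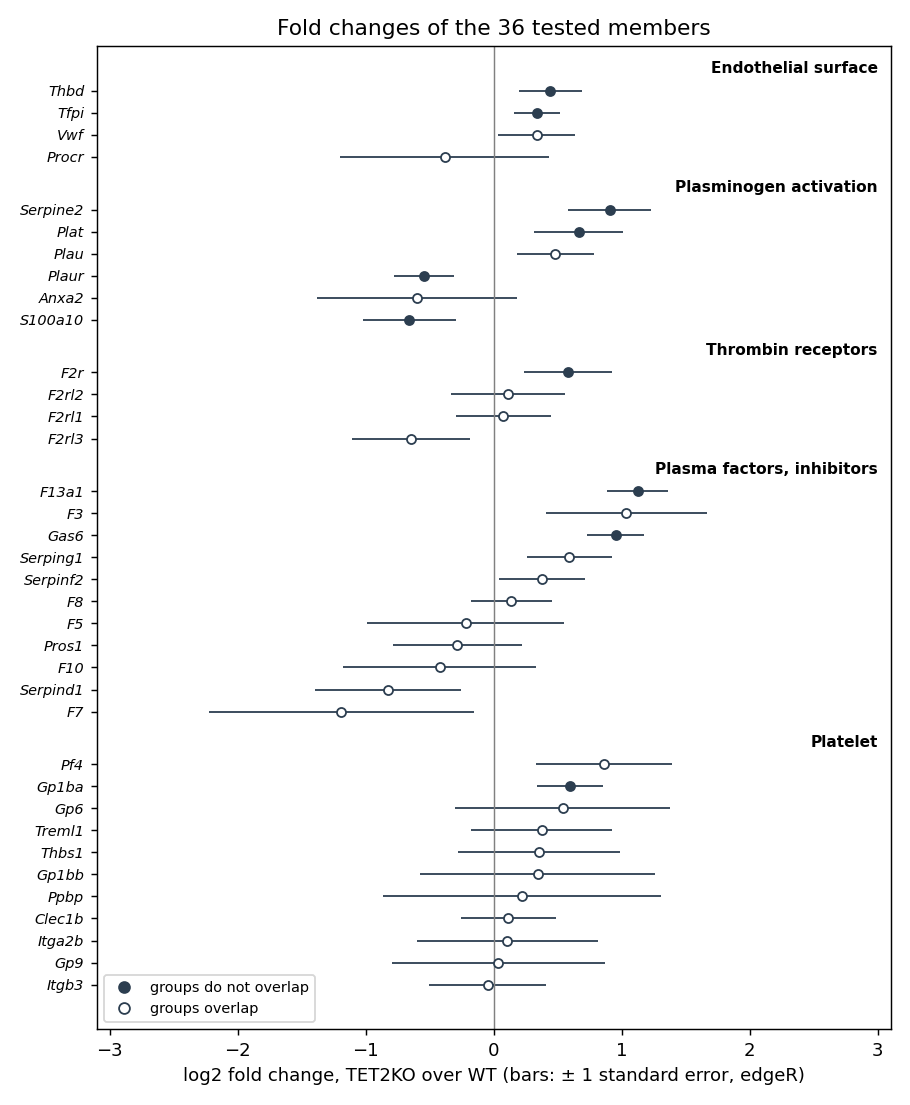
Log2 fold changes of TET2KO over WT (horizontal axis) for the 36 tested genes, grouped by role, with bars of 1 standard error from edgeR; filled points mark genes whose TET2KO and WT libraries did not overlap. F13a1 lies farthest to the right at 1.12 and F7 farthest to the left at -1.19 with a standard error of 1.03.

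Of the genes of the endothelial surface, Thbd and Vwf had many reads and Tfpi and Procr few, and none was called. Thbd, which encodes thrombomodulin (chromosome 2, 148404466 to 148408188, minus strand, GRCm38), stood at 849 and 843 CPM in TET2KO, against 475, 717 and 676 CPM in WT. Tfpi, the inhibitor of the tissue factor pathway, stood at 20.8 and 22.6 CPM in TET2KO, against 15.6, 19.0 and 16.9 CPM in WT. For both genes the groups did not overlap, yet the log2 fold changes were 0.44 (SE 0.25) for Thbd and 0.34 (SE 0.18) for Tfpi, with edgeR adjusted p of 0.864 for each. Leaving out WT replicate 1 gave 0.28 for Thbd. Vwf, the adhesive carrier of factor VIII stored in endothelial granules, overlapped: it stood at 556 and 942 CPM in TET2KO, against 485, 696 and 599 CPM in WT. The log2 fold change of Vwf was 0.34 (SE 0.30), and -0.09 without TET2KO replicate 2. Procr, the endothelial protein C receptor, stood at 4.14 and 10.2 CPM in TET2KO, against 4.52, 19.4 and 4.07 CPM in WT. Replicate 2 was the highest library of Procr in each group. It was also the highest for the sum of 7 mesothelial markers, none of which was at 0, at 91.4 and 239.5 CPM in TET2KO and 161, 425 and 56.7 CPM in WT. Most of that sum was Krt19, a keratin of several epithelia, with 2023 and 6264 counts in TET2KO and 4183, 12311 and 1475 in WT. Of the 7 markers, Krt19 was the 1 highest in WT replicate 2, and 4 were lowest there. The 6 markers besides Krt19 had both TET2KO values above every WT value. The part of mesothelial cells in the Procr values was not tested. The log2 fold change of Procr was -0.38 (SE 0.81) but 0.77 if WT replicate 2 was left out and 0.12 if TET2KO replicate 1 was, so single libraries decided its sign.

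Beside the endothelial markers these genes did not hold a fixed ratio. Thbd was 0.676 and 0.725 times the level of Cdh5, the endothelial cadherin, in TET2KO, and 0.755, 1.48 and 0.710 times in WT. For Vwf the ratio to Cdh5 was 0.443 and 0.810 in TET2KO and 0.772, 1.44 and 0.629 in WT. WT replicate 2 had the highest ratio of both genes. Scaled on the summed endothelial markers, the log2 fold changes were -0.35 for Thbd, -0.46 for Tfpi and -0.47 for Vwf, so their direction depended on the scale. Ratios within a library show unequal change and not which gene changed.

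Genes of plasminogen activation had fold changes in both directions, and none was called. Plat, tissue plasminogen activator, stood at 53.3 and 44.9 CPM in TET2KO, against 33.1, 18.4 and 41.5 CPM in WT, with no overlap. Its log2 fold change was 0.66 (SE 0.35; edgeR adjusted p = 0.864), and 0.42 if WT replicate 2 or 0.97 if WT replicate 3 was left out. It kept close to Cdh5, at 0.0425 and 0.0386 times its level in TET2KO and 0.0527, 0.0381 and 0.0436 times in WT, a spread of 1.38-fold over libraries where Plat itself spread 2.90-fold. Scaled on the endothelial markers its log2 fold change was -0.02. Serpine2, protease nexin 1, an inhibitor of thrombin and of plasminogen activators, was low, at 4.38 and 6.67 CPM in TET2KO against 3.47, 2.23 and 3.15 CPM in WT. Its log2 fold change of 0.91 (SE 0.33) had an unadjusted p of 0.0350 and failed the correction (edgeR adjusted p = 0.814); it was 0.57 without TET2KO replicate 2 and 0.17 when scaled on the endothelial markers. Plau, urokinase, overlapped, at 16.8 and 24.6 CPM in TET2KO and 11.4, 19.4 and 13.9 CPM in WT.

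The urokinase receptor and a plasminogen receptor had lower values in TET2KO, but did not pass the test. Plaur, the urokinase receptor, carried also by myeloid cells, stood at 400 and 358 CPM in TET2KO, against 465, 681 and 515 CPM in WT. S100a10, which with annexin A2 forms a plasminogen-binding complex at the cell surface, stood at 120 and 131 CPM in TET2KO, against 159, 298 and 137 CPM in WT. These were the 2 genes of the 36 with both TET2KO libraries below all WT libraries, which held for 12.4% of all genes. The log2 fold changes were -0.55 (SE 0.23) for Plaur and -0.66 (SE 0.37) for S100a10, with edgeR adjusted p of 0.864 for each, and -0.34 and -0.21 without WT replicate 2. Scaled on the endothelial markers they were -1.37 for Plaur and -1.55 for S100a10, with edgeR adjusted p of 0.178 for each. With that scaling the median of all genes was -0.84. It gave 4985 of all genes an unadjusted edgeR p under 0.05, against 1098 with TMM factors, so the lower adjusted p is not particular to these 2 genes. Anxa2, the partner of S100a10, overlapped, at 257 and 482 CPM in TET2KO and 342, 1139 and 194 CPM in WT. All 3 were highest in WT replicate 2, the library with the highest sum of macrophage and monocyte markers, although 4 of those 14 were lowest there. Of all 18727 genes tested, 6551 were highest in that library. The part of macrophages in the values of Plaur, S100a10 and Anxa2 was not tested. The median of the 6 genes was -0.03, with 3 above 0 and 3 below. It was 0.46 if WT replicate 2 and 0.16 if TET2KO replicate 1 was left out, and -0.86 when scaled on the endothelial markers.

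**Figure D2:**
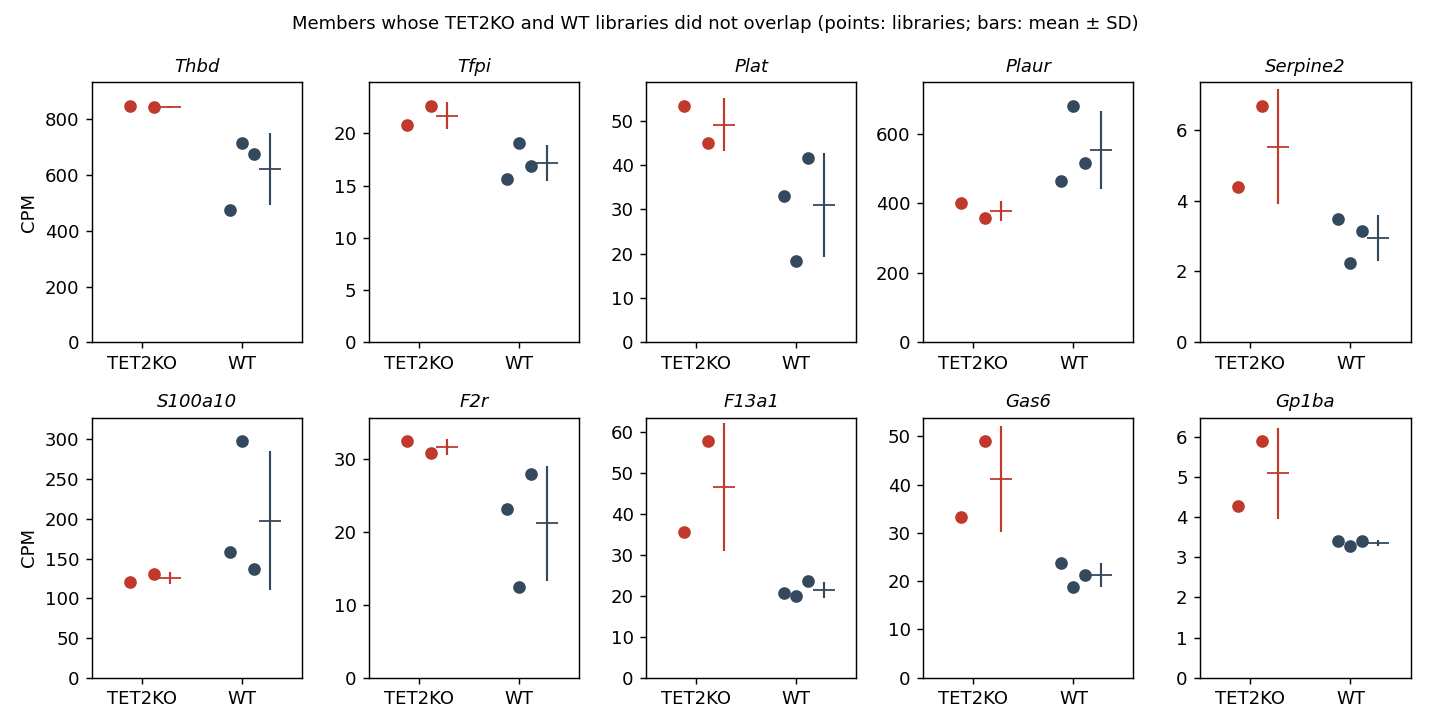
CPM (vertical axes, each from 0) of the 10 tested genes whose TET2KO and WT libraries did not overlap; points are libraries and the bars beside them are mean ± SD (n = 2 TET2KO, n = 3 WT). Thbd, Tfpi, Plat, Serpine2, F2r, F13a1, Gas6 and Gp1ba lie higher in TET2KO and Plaur and S100a10 lower, and none passed the adjusted threshold.

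Of the protease-activated receptors, F2r and F2rl1 were well counted and the others were near 1 CPM. F2r, the main thrombin receptor of endothelium, stood at 32.4 and 30.9 CPM in TET2KO, against 23.2, 12.5 and 27.9 CPM in WT, without overlap. Its log2 fold change was 0.58 (SE 0.35; edgeR adjusted p = 0.864), 0.33 if WT replicate 2 or 0.86 if WT replicate 3 was left out, and -0.11 when scaled on the endothelial markers. Like Plat it followed Cdh5, at 0.0258 and 0.0265 times its level in TET2KO and 0.0369, 0.0258 and 0.0293 times in WT. F2rl1, a receptor for trypsin-like proteases, overlapped, at 15.5 and 14.0 CPM in TET2KO and 15.8, 7.94 and 18.3 CPM in WT. F2rl2 and F2rl3, which mouse platelets use to sense thrombin, had raw counts of only 13 to 36 per library. F2rl3 had 13 and 20 counts in TET2KO and 23, 31 and 17 in WT, and its log2 fold change was -0.64 (SE 0.46). Leaving out 1 library moved it to between -1.01 (TET2KO replicate 2) and -0.35 (TET2KO replicate 1), with -0.36 for WT replicate 2, and the endothelial marker scaling to -1.46. That of F2rl2 was 0.11 (SE 0.45) and changed sign when WT replicate 3 (-0.09) or TET2KO replicate 1 (-0.11) was left out. Iqgap2 overlaps F2rl2 on the opposite strand, and the strand setting of the counting is not given, so reads in any shared parts are uncertain.

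The plasma factors and inhibitors held the smallest p-values of the 36 genes. F13a1, the catalytic subunit of factor XIII, which cross-links fibrin and is also made by monocytes, macrophages and megakaryocytes (chromosome 13, 36867178 to 37050244, minus strand, GRCm38), stood at 35.6 and 57.6 CPM in TET2KO, against 20.7, 20.0 and 23.4 CPM in WT. It averaged 46.6 ± 15.6 CPM in TET2KO and 21.4 ± 1.84 CPM in WT (SD, n = 2 and 3), so the TET2KO libraries differed from each other more than the WT libraries did. The fold change of F13a1 was 1.12 on the log2 scale (SE 0.24; unadjusted p = 0.00410, edgeR adjusted p = 0.740). Leaving out WT replicate 2 gave 1.11, leaving out WT replicate 3 gave 1.23 and leaving out TET2KO replicate 2 gave 0.73; it was 0.36 when scaled on the endothelial markers. Of the 14 macrophage and monocyte markers, C1qa and C1qb had both TET2KO values above all WT values and the other 12 overlapped. C1qa, a complement gene of tissue macrophages, stood at 25.5 and 34.0 CPM in TET2KO and 21.7, 10.8 and 13.2 CPM in WT. The part of these cells in the F13a1 values was not tested.

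Gas6, a vitamin K-dependent ligand of the TAM receptor kinases (chromosome 8, 13465374 to 13494490, minus strand), stood at 33.4 and 49.0 CPM in TET2KO, against 23.7, 18.8 and 21.3 CPM in WT. For Gas6 the log2 fold change came to 0.95 (SE 0.22; unadjusted p = 0.00607, edgeR adjusted p = 0.740). Leaving out WT replicate 2 gave 0.90, leaving out WT replicate 3 gave 0.99 and leaving out TET2KO replicate 2 gave 0.65; it was 0.19 when scaled on the endothelial markers. Both F13a1 and Gas6 overlap annotated genes on the opposite strand, and the strand setting of the counting is not given in the sources used here. In both genes TET2KO replicate 2 was the highest library, as it was for 2999 of all 18727 genes tested. Of the 18 endothelial markers, 10 were highest in TET2KO replicate 2, 7 in TET2KO replicate 1 and 1 in WT replicate 3. Of the 7 mesothelial markers, 5 were highest in TET2KO replicate 2, while Wt1 was highest in TET2KO replicate 1 and Krt19 in WT replicate 2. Msln, mesothelin, stood at 6.22 and 11.5 CPM in TET2KO against 2.03, 1.96 and 2.57 CPM in WT. All 9 alveolar epithelial markers were highest in TET2KO replicate 2 too. These 9 summed to 558 and 883 CPM in TET2KO and 750 CPM, 311 CPM and 229 CPM in WT replicates 1, 2 and 3, none was at 0, and 4 had both TET2KO values above every WT value. The part of endothelium, of mesothelium and of alveolar epithelium in the F13a1 and Gas6 values was not tested.

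A second set of plasma factors varied most within WT. F7, factor VII, which starts the cascade with tissue factor, stood at 73.5 and 114 CPM in TET2KO and at 113, 492 and 37.5 CPM in WT, a spread of 13.1-fold. F10, factor X, stood at 34.2 and 61.0 CPM in TET2KO and 42.6, 127 and 21.3 CPM in WT. Pros1, protein S, the cofactor of activated protein C, stood at 81.8 and 118 CPM in TET2KO and 108, 197 and 59.4 CPM in WT. All 3 were highest in WT replicate 2, lowest in WT replicate 3, and overlapped between the groups. Of all 18727 genes tested, 6551 were highest in WT replicate 2 and 4451 lowest in WT replicate 3. F7 and F10 are neighbours on chromosome 8, 1498 bases apart. The macrophage gene Lyz2 had the same highest and lowest library. F7 was 0.0259 and 0.0247 times the level of Lyz2 in TET2KO and 0.0214, 0.0270 and 0.0213 times in WT, a spread of 1.27-fold. Its ratio to Chil3, another macrophage marker with those same highest and lowest libraries, spread 1.92-fold. Of the 14 macrophage and monocyte markers, 4 were lowest in WT replicate 2. The part of macrophages in the F7 values was not tested. The log2 fold change of F7 was -1.19 (SE 1.03; edgeR adjusted p = 0.864). It was 0.36 without WT replicate 2 and -1.67 without WT replicate 3, so 1 library decided its sign.

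F3, tissue factor, stood at 6.59 and 5.54 CPM in TET2KO and at 5.71, 1.45 and 1.72 CPM in WT, where replicate 1 was close to the TET2KO libraries. F5, factor V, stood at 68.9 and 26.3 CPM in TET2KO and at 96.3, 16.1 and 53.6 CPM in WT, so the groups overlapped widely. Serping1, the C1 inhibitor, which also blocks plasma kallikrein, stood at 9.27 and 13.8 CPM in TET2KO and at 10.4, 6.08 and 6.48 CPM in WT, with a log2 fold change of 0.59 (SE 0.33), which was 0.27 without TET2KO replicate 2, 0.88 without WT replicate 1 and -0.18 when scaled on the endothelial markers. F8, factor VIII, which endothelium makes, was low at 2.11 and 2.54 CPM in TET2KO and 2.49, 1.62 and 2.22 CPM in WT. Serpinf2, the plasmin inhibitor antiplasmin, had 39 and 52 counts in TET2KO and 26, 36 and 35 in WT, and Serpind1, heparin cofactor II, had 7 and 17 counts in TET2KO and 24, 12 and 23 in WT. Proc, protein C, had 2 and 2 counts in TET2KO and 1, 1 and 0 in WT, under the floor of 3 counts per library, and was not tested. Liver markers were near 0 as well: 9 of them summed to 1.06 and 1.44 CPM in TET2KO and 1.4, 1.28 and 0.508 CPM in WT, with Serpina1a at 0 in all libraries. The 11 tested plasma genes had a median log2 fold change of 0.14, with 6 above 0. Leaving out 1 library moved it to 0.27 (WT replicate 1), 0.48 (WT replicate 2), 0.21 (WT replicate 3), 0.26 (TET2KO replicate 1) or 0.12 (TET2KO replicate 2), and the endothelial marker scaling to -0.60.

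**Figure D3:**
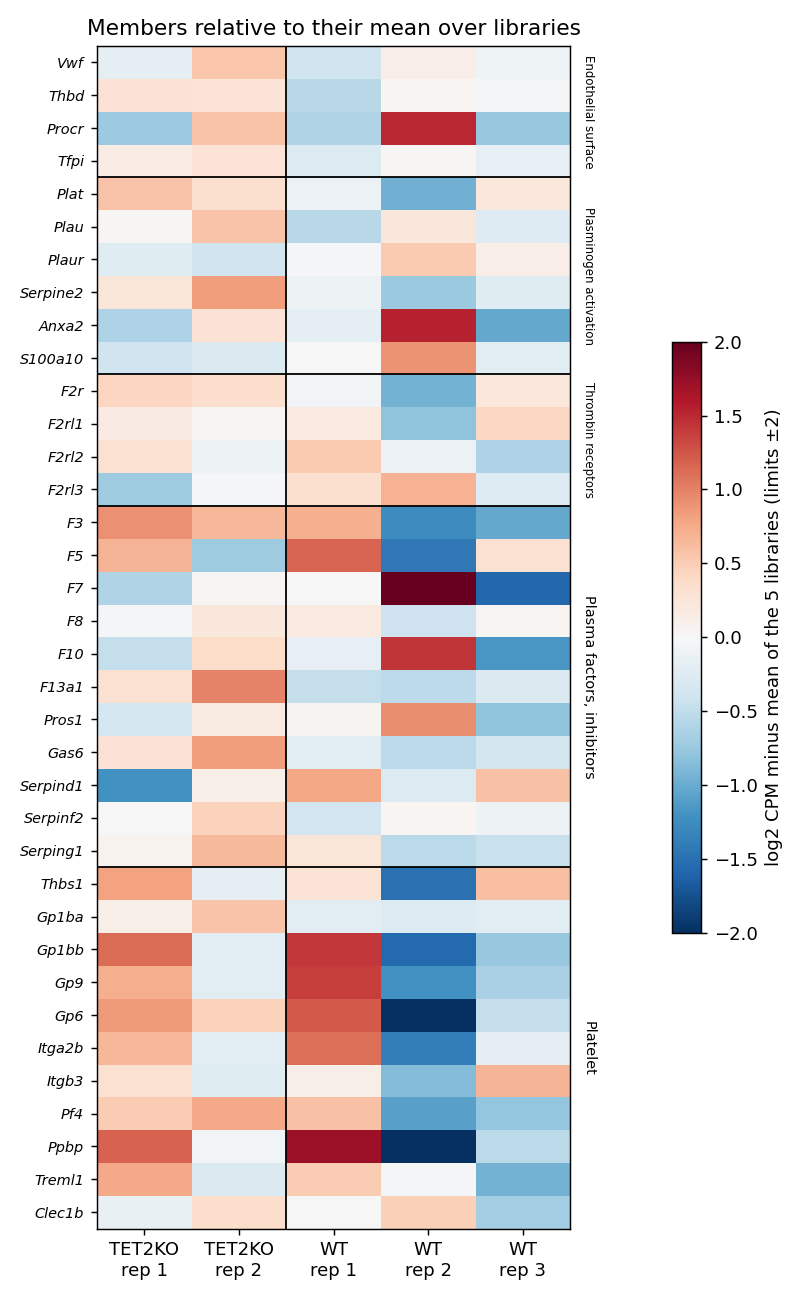
Log2 CPM of each tested gene minus its mean over the 5 libraries (colour, limits at ±2), with genes in rows by role and libraries in columns. F7, F10, Anxa2 and Procr are highest in WT replicate 2, while 9 of the 11 platelet genes are lowest there. Of all 18727 genes tested, 6551 are highest and 6163 lowest in that library.

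Platelet transcripts were present in every library and varied widely among the libraries of each group. Of the 11 genes, 9 were lowest in WT replicate 2, 2 in WT replicate 3 and 0 in a TET2KO library, and 10 overlapped between the groups. Of all 18727 genes tested, 6163 were lowest in WT replicate 2, 4451 in WT replicate 3, and 2418 and 3332 in TET2KO replicates 1 and 2. The groups overlapped for 14083 of them. All 9 lymphocyte markers and 11 of the 18 endothelial markers were lowest in WT replicate 2 too. Ppbp, the precursor of a platelet granule chemokine, stood at 12.5 and 5.32 CPM in TET2KO and at 18.1, 1.12 and 3.81 CPM in WT, a spread of 16.2-fold, the widest of the 36 genes. Itga2b, the alpha chain of the fibrinogen receptor and a marker of the lineage, stood at 21.0 and 11.5 CPM in TET2KO and at 28.4, 5.10 and 11.8 CPM in WT. Gp9 and Gp1bb, parts of the receptor for von Willebrand factor, and Gp6, the collagen receptor, had the same highest and lowest library as Ppbp. Gp9 had 60 and 30 counts in TET2KO and 82, 14 and 22 in WT. Gp1bb had 50 and 19 counts in TET2KO and 53, 7 and 13 in WT, and Gp6 had 42 and 31 in TET2KO and 47, 5 and 16 in WT. In all of these WT replicate 1 and TET2KO replicate 1 were the highest libraries.

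The same libraries were high for some platelet genes outside the 37, but not for all. Tubb1, the platelet tubulin, stood at 8.55 and 4.10 CPM in TET2KO and at 10.9, 1.18 and 2.86 CPM in WT. The ratio of Ppbp to Tubb1 was 1.47 and 1.30 in TET2KO and 1.66, 0.943 and 1.33 in WT, a spread of 1.77-fold. Of 9 megakaryocyte and platelet markers that are not among the 37, summed, the level was 61.0 and 44.0 CPM in TET2KO and 76.0, 29.1 and 28.0 CPM in WT. None of the 9 was at 0. Of these 9, 7 were highest in WT replicate 1, 1 (P2ry12) in WT replicate 2 and 1 (Rab27b) in TET2KO replicate 2. The lowest library was WT replicate 2 for 5 and WT replicate 3 for 4. In a wider list of 25 other platelet genes, 11 were highest in WT replicate 1 and 7 in WT replicate 2. Whether the amount of platelets or megakaryocytes in each library accounts for these values was not tested.

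Pf4, platelet factor 4, did not share the order of Ppbp. It stood at 8.25 and 9.80 CPM in TET2KO and at 8.76, 2.74 and 3.40 CPM in WT, and its ratio to Ppbp ranged 5.07-fold over the libraries although the genes lie 2371 bases apart on chromosome 5. Its log2 fold change was 0.86 (SE 0.53; edgeR adjusted p = 0.864), 1.56 without WT replicate 1, 0.69 without WT replicate 3 and 0.10 when scaled on the endothelial markers. Gp1ba, the chain that binds von Willebrand factor, was the 1 platelet gene without overlap, at 4.29 and 5.89 CPM in TET2KO against 3.40, 3.28 and 3.40 CPM in WT. Its log2 fold change was 0.60 (SE 0.26; edgeR adjusted p = 0.864), 0.35 without TET2KO replicate 2 and -0.17 when scaled on the endothelial markers. It also did not follow Gp1bb and Gp9, its partners in the receptor complex, which spread 7.85-fold and 6.07-fold over the libraries where Gp1ba spread 1.80-fold.

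The remaining platelet genes are shared with other cells. Thbs1, thrombospondin, of platelet granules, endothelium and macrophages, stood at 729 and 363 CPM in TET2KO and at 505, 148 and 630 CPM in WT. Itgb3, the beta chain of the fibrinogen receptor, which endothelium also carries, stood at 68.6 and 46.8 CPM in TET2KO and at 60.2, 30.3 and 88.6 CPM in WT. Its log2 fold change was -0.05 (SE 0.46). Leaving out WT replicate 3 gave 0.39 and TET2KO replicate 2 gave 0.20, while WT replicate 2 gave -0.34 and TET2KO replicate 1 gave -0.35. Itgb3 was 3.27 and 4.06 times the level of Itga2b in TET2KO and 2.12, 5.93 and 7.53 times in WT, so the chains of the receptor did not keep a fixed ratio. Clec1b, the podoplanin receptor CLEC-2, was the 1 platelet gene highest in WT replicate 2, at 15.8 and 22.2 CPM in TET2KO and 17.5, 24.3 and 10.9 CPM in WT. Clec9a overlaps it on the same strand, and Sept5 overlaps Gp1bb, so reads in the shared parts are uncertain. Treml1, a receptor of platelet granules, had 62 and 29 counts in TET2KO and 45, 32 and 18 in WT, with a log2 fold change of 0.37 (SE 0.55). The median of the 11 platelet genes was 0.34, with 10 above 0; leaving out a library moved it to 0.95 (WT replicate 1), -0.03 (WT replicate 2), 0.10 (WT replicate 3), -0.24 (TET2KO replicate 1) or 0.71 (TET2KO replicate 2), and the endothelial marker scaling to -0.45.

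**Figure D4:**
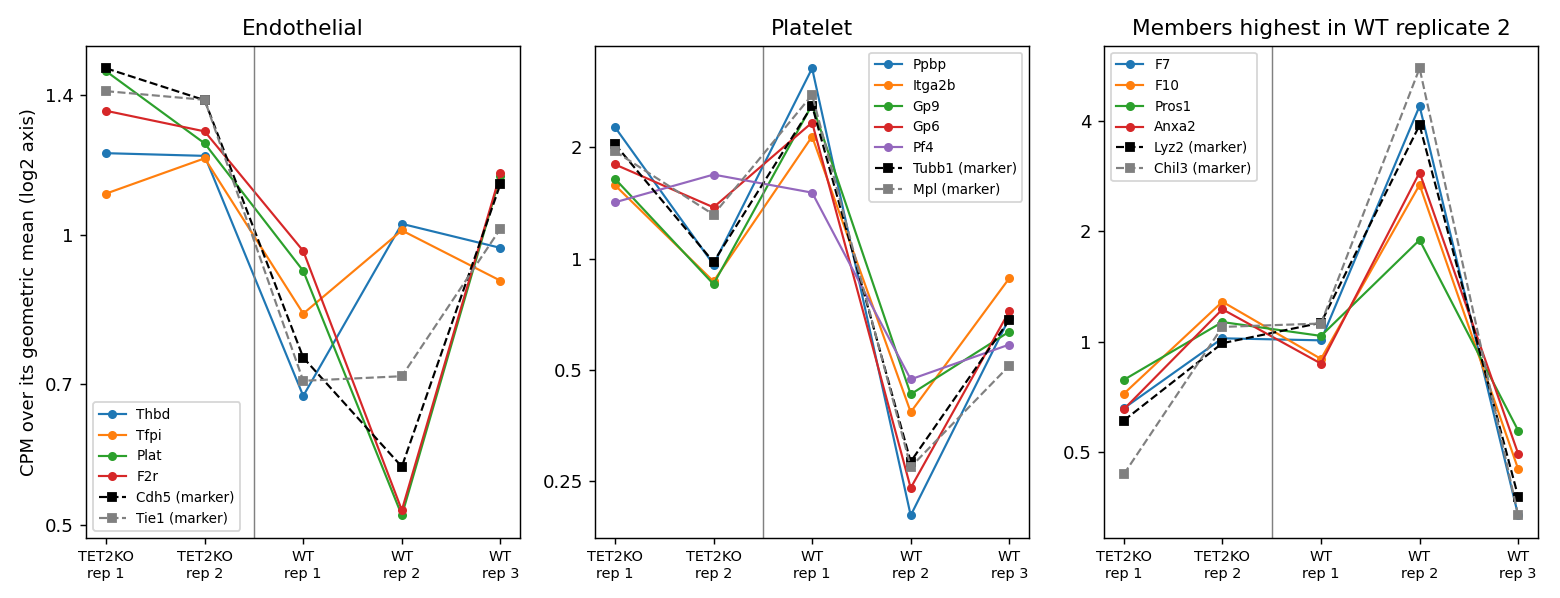
CPM of selected genes divided by their own geometric mean over the 5 libraries (vertical axes, log2 scale), with marker genes outside the 37 as dashed lines; lines join the values of 1 gene. Plat and F2r follow Cdh5, Ppbp, Gp9 and Gp6 follow Tubb1, and F7 follows Lyz2. WT replicate 2 is lowest for these genes of the first 2 panels and highest for F7 and Lyz2. Thbd, Tfpi and Tie1, also in the first panel, are lowest in WT replicate 1.

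The sequences before the starts of these genes were read as a description. RefSeq promoters (GRCm38.p6) were found for 27 of the 37 genes, 9 of them platelet genes. The 250 bases before the start were searched on both strands for GATA motifs (the letters GATA with A or T just before and A or G just after), the kind bound by the megakaryocyte factor GATA1 and its relatives, and for ETS motifs (the letters GGAA with CC or CA just before). A GATA motif was in 4 of the 9 platelet promoters and in 26.5% of all 32544 promoters. An ETS motif was in 4 of the 9 and in 35% of all promoters. Gp1ba held 3 GATA motifs and 1 ETS motif. Gp6 and Clec1b held 1 GATA motif each, Ppbp 1 ETS motif, and Pf4 none of either. The windows of these genes are printed 5′ to 3′ with the motifs in capitals. They set Gp1ba beside genes of unlike pattern and the neighbours Pf4 and Ppbp beside each other. For F13a1, the gene with the smallest p, the window of the first of 2 promoters is printed, which has 2 ETS motifs. The second promoter of F13a1 has none of either motif. The printed windows lie at chr11:70638872-70639121 (Gp1ba, plus strand), chr7:4397745-4397994 (Gp6, minus), chr6:129397047-129397296 (Clec1b, plus), chr5:90772185-90772434 (Pf4, plus), chr5:90768268-90768517 (Ppbp, plus) and chr13:37050245-37050494 (F13a1, minus). A match is a run of letters and not a shown binding site.
Gp1ba: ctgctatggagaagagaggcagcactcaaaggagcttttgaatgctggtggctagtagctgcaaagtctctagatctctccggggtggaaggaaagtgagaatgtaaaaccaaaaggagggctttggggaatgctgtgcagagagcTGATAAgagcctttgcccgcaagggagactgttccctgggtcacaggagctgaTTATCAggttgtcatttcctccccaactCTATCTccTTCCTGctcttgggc
Gp6: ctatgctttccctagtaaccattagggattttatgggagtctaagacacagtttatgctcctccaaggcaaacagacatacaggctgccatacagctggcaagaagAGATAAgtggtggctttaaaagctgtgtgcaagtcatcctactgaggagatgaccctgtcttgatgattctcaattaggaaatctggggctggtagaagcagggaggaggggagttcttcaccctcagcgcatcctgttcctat
Clec1b: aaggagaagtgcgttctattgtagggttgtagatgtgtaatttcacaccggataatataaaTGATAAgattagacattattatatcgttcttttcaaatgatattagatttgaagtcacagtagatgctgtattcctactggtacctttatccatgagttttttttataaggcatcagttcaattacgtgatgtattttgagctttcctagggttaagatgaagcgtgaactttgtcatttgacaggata
Pf4: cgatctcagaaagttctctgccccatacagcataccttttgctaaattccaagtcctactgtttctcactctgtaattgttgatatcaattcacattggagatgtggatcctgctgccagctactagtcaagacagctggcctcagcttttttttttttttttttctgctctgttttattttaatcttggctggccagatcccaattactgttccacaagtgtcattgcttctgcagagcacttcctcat
Ppbp: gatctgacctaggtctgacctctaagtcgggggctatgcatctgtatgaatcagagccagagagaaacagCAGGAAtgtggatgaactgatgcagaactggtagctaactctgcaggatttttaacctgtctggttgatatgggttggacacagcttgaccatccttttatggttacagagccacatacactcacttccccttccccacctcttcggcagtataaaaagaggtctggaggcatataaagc
F13a1: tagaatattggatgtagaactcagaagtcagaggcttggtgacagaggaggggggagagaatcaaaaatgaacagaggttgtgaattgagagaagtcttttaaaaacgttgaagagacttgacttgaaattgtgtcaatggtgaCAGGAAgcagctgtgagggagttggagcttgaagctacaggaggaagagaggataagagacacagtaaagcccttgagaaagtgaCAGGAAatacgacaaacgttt

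Per length, the levels of the 37 genes spanned from Plaur and Thbd, with median levels of 622 and 617 TPM (transcript abundance corrected for length) over the 5 libraries, to Proc at 0.0782 TPM. S100a10 followed at 393 TPM, Anxa2 at 321 TPM, Thbs1 at 291 TPM, F7 at 212 TPM and Vwf at 126 TPM. Thbd had 833 and 826 TPM in TET2KO and 446, 507 and 617 TPM in WT, and Plaur had 558 and 499.5 TPM in TET2KO and 622, 685 and 669 TPM in WT, so the order of these 2 levels was not the same in the groups. Among platelet genes Pf4 stood at 41.8 TPM and Ppbp at 17.9 TPM, against 7.71 TPM for Itga2b and 0.600 TPM for Gp6.

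Other genes of the pathway, taken from fixed lists, gave no calls either. Of 34 other coagulation and fibrinolysis genes 21 were tested, 0 were called by edgeR, 0 had an unadjusted p under 0.05, and 11 lay above 0 with a median log2 fold change of 0.08. The liver genes of fibrinogen were near 0, with Fga at 0 counts in all libraries and Fgb and Fgg at 1 count each over the 5 libraries together. F9, factor IX, had the smallest p of this list: it stood at 0.332 and 0.407 CPM in TET2KO against 0.631, 1.55 and 0.667 CPM in WT, a log2 fold change of -1.35 (SE 0.57; edgeR adjusted p = 0.864). Entpd1, an ectonucleotidase that removes the platelet agonist ADP, stood at 125 and 138 CPM in TET2KO against 90.7, 116 and 96.7 CPM in WT, a log2 fold change of 0.38 (SE 0.17). Of 25 other platelet genes, all tested, 0 were called, 17 lay above 0 and the median was 0.24. Rab27b, a GTPase of granule secretion, stood at 5.65 and 6.26 CPM in TET2KO against 3.85, 3.08 and 3.05 CPM in WT (log2 fold change 0.84, SE 0.25). Pdgfb, a growth factor of platelets and endothelium, stood at 132 and 108 CPM in TET2KO against 56.8, 46.0 and 85.1 CPM in WT (log2 fold change 0.94, SE 0.29). These 2 were the genes of the list with an unadjusted p under 0.05, and both failed the correction (edgeR adjusted p = 0.740 and 0.749).

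The authors' deposited table, which set TET2KO and WT replicate 3 over WT replicates 1 and 2, held 36 of the 37 genes. None had an adjusted p under 0.05 in the authors' deposited table, in which 2.16% of genes with an adjusted p did, and 6 of the 36 had an unadjusted p under 0.05, as did 14.1% of all its genes with a p. The lowest adjusted p in the authors' deposited table was that of F7, at 0.0683 with a log2 fold change of -1.99. In the authors' deposited table Plat stood at 0.88, F13a1 at 0.96, Gas6 at 0.72 and Ppbp at -0.39 on the log2 scale.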

How the data were processed

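Poly(A) RNA was sequenced as paired-end reads of 150 bp in 2 TET2KO and 3 WT libraries. Per the submitters' processing notes, the tools were featureCounts from Subread 1.5.2, STAR 2.5.2b, Trimmomatic 0.36 and DESeq2, on the build GRCm38; the strand setting and annotation release are not given in the sources used here. Deposited files hold raw gene counts, TPM, and a comparison with p-values (raw and adjusted) and log2 fold changes beside a normalized signal, the counts divided by a size factor.

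The test on the deposited counts used filterByExpr, TMM factors and the quasi-likelihood fit of edgeR 4.0.16 in R 4.3.3, with genotype as the only term, with Benjamini-Hochberg adjustment over all genes tested and a threshold of 0.05. The standard error is the log2 fold change over the square root of F. CPM use TMM-scaled totals.

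The 37 genes, their roles, the pathway lists and the marker lists were chosen with earlier results of these data known. Fold changes are given for up to 3 genes per role with the smallest p and the most extreme in each direction; the ratios shown were picked with the values in view. Of the listed markers, Siglecf was not found by symbol. Gene positions are from GENCODE M21 (GRCm38), in which 49056 of 49315 identifiers were found. Of the 37 genes, 8 overlap a gene on the opposite strand. Alternatives were DESeq2 1.42.0, limma-voom (limma 3.58.1), other scalings and filters, a replicate block, limma on log2(TPM + 1) and log2(TPM + 0.1), and leaving out each library; the legacy spread of edgeR and DESeq2 on filtered counts were added after seeing the data.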

Additional observations from a re-analysis of the deposited data

How the results depend on the processing

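The call of 0 among the 36 tested genes held under all 18 alternatives. Over all genes edgeR and limma called 0 in every setting run, while DESeq2 called 21 (0.126% of genes) and, on filtered counts, 60 (0.34%). The median log2 fold change of the 36 tested genes was -0.50 with endothelial marker scaling and 0.57 on log2(TPM + 0.1), and ran from 0.060 to 0.39 when 1 library was left out. With endothelial marker scaling 5 of 36 lay above 0; without 1 library 18 to 26 did. The median of all genes was -0.84 with endothelial marker scaling, 0.06 with library totals, 0.13 on log2(TPM + 1) and 0.17 on log2(TPM + 0.1), against -0.08.

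Of 19 named genes, 7 kept their direction under every alternative run. With endothelial marker scaling the direction reversed for Tfpi (-0.46), Thbd (-0.35), Vwf (-0.47), Plat (-0.022), F2r (-0.11), F2rl2 (-0.68), Serping1 (-0.18), Gp1ba (-0.17) and Treml1 (-0.45). Procr was 0.071 on log2(TPM + 1) and 0.083 on log2(TPM + 0.1). Itgb3 was 0.058 by limma-voom, 0.0035 with upper quartile factors, 0.046 with library totals, 0.25 on log2(TPM + 1) and 0.27 on log2(TPM + 0.1). When 1 library was left out, Vwf ran from -0.094 to 0.66, Procr from -1.17 to 0.77, F2rl2 from -0.11 to 0.46, F7 from -1.67 to 0.36, Treml1 from -0.24 to 0.80 and Itgb3 from -0.35 to 0.39. The cause of these changes was not tested.

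Groups share replicate numbers 1 and 2, but the labels do not say that a number marks a shared animal or day; the correlations of deviations across genes were 0.22 and 0.49. With the replicate block edgeR called 0 genes and 10 of the 36 genes had an unadjusted p under 0.05, against 3 without it; over all genes 2982 did, against 1098. Under the block F2rl2 was -0.11 and Itgb3 0.41. Depth limits Proc, Serpind1, Serpinf2, Gp1bb, Gp6, F2rl2 and F2rl3, which had under 60 counts in each library.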

Other observations

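Receptors of Gas6 and Pros1 were measured as well. Axl, a TAM receptor kinase, stood at 229 and 466 CPM in TET2KO and at 490, 1560 and 172 CPM in WT, and Mertk, which macrophages use to clear dying cells, at 165 and 257 CPM in TET2KO and at 236, 791 and 113 CPM in WT. Both were highest in WT replicate 2 and lowest in WT replicate 3, as Pros1 was, whereas Gas6 was lowest in WT replicate 2. Their log2 fold changes were -1.09 (SE 0.92) for Axl and -0.85 (SE 0.82) for Mertk, and the groups overlapped. Tyro3, the remaining receptor of the family, stood at 2.30 and 2.69 CPM in TET2KO and at 2.59, 1.18 and 2.54 CPM in WT. These 3 genes belong to the list of other coagulation genes and were chosen after their values were seen.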
